A study of Mus musculus with 10 samples.

Results

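The genes described here are 10 genes used to recognise conventional type 1 dendritic cells (cDC1) or tied to their function, measured in the tumor-draining lymph nodes (TDLNs) of mice after microwave ablation (MWA) of a mammary tumor. They are Batf3, Irf8, Xcr1, Clec9a, Cadm1, Itgae, Cd24a, Wdfy4, Naaa and Xcl1. They were chosen by name and taken from the 33585 genes of the expression files by matching Ensembl identifiers to symbols, so the rule itself used no measured value. All 10 were found, and 9 of them were among the 13334 genes that reached a mean of 1 FPKM (a read level scaled to transcript length and to the mapped reads of the library) over the 10 libraries and were tested. Cadm1, at a mean of 0.891 FPKM, was not.

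The study asked whether blocking glycolysis with 2-deoxy-D-glucose (2DG) alters the immune response that follows ablation. Female BALB/c mice, 6 weeks old, received 4T1 cells, a transplantable BALB/c mammary carcinoma line, in the mammary fat pad on day 0. Every tumor was ablated with microwaves on day 10, so the comparison holds no untreated or non-ablated node. Mice of the MWA+2DG group were given 500 mg/kg 2DG by intraperitoneal injection every 2 days from day 10, and those of the MWA group were given PBS on the same days. Whole nodes were collected on day 15, and poly(A) RNA was sequenced in 5 libraries per group, numbered 1 to 5. No source used here states that nodes were pooled or which mouse gave each library, so the p-values below measure the spread between these libraries.

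cDC1 are the dendritic cells that take up dead cells and present their antigens to CD8 T cells, a process called cross-presentation. Their development depends on the transcription factors IRF8 and BATF3. They carry the chemokine receptor XCR1, whose ligand XCL1 is released by NK cells and activated CD8 T cells, and the receptor CLEC9A, which binds actin exposed on dead cells. In lymph nodes both resident cDC1 and cDC1 that have migrated from the tissue are found. Several of the 10 genes are also transcribed elsewhere in a node: Irf8 and Wdfy4 in B cells, Cd24a in B cells, and Itgae in some T cells. Xcl1 is a product of the cells that attract cDC1 rather than of cDC1. In RNA from a whole node, fewer cells of a type and less RNA per cell cannot be told apart.

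The libraries were alike in overall yield, with 24289 to 25184 genes above 0 FPKM and summed levels of 312143 to 359984 FPKM. They held the cells of a node: the 10 B cell genes examined summed to 1506 to 1824 FPKM and the 12 T cell genes to 462 to 751 FPKM. The libraries also fell into sets by number in both groups. Albumin, a liver product, was at 0 to 0.0486 FPKM in the 4 libraries numbered 1 or 2 and at 35.1 to 102 FPKM in the 6 numbered 3 to 5, and the heat shock gene Hspa1a was at 1.89 to 4.48 FPKM in the former and 10.3 to 24.9 FPKM in the latter. The library MWA+2DG 5 stood apart from the other libraries, with the interferon-induced chemokine Cxcl9 at 190 FPKM, where MWA 4 had 95.9 FPKM and the other libraries 8.21 to 24.7 FPKM. It also had the highest Gzma, a granule protease of NK and cytotoxic T cells, at 87.6 FPKM, and the highest Adipoq, a fat cell product, at 10.9 FPKM. Values without it are given beside the members' results.

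The 10 genes differed widely in level. Over all 10 libraries the mean level was 92.9 ± 15.5 FPKM (SD) for Cd24a, 67.5 ± 9.47 FPKM for Irf8, 26.8 ± 4.08 FPKM for Wdfy4 and 14.1 ± 2.11 FPKM for Naaa. Each of these was separated from its neighbours by more than their SDs. Xcl1 (5.86 ± 2.17 FPKM), Itgae (4.44 ± 0.964 FPKM), Clec9a (3.65 ± 0.925 FPKM) and Batf3 (3.51 ± 0.879 FPKM) followed, and neighbours among these 4 overlapped within their SDs. Xcr1 (1.99 ± 0.453 FPKM) and Cadm1 (0.891 ± 0.223 FPKM) were lowest. The genes most restricted to cDC1, Xcr1 and Clec9a, were thus detected in every library, and the highest levels were those of genes that B cells also transcribe.

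**Figure D1:**
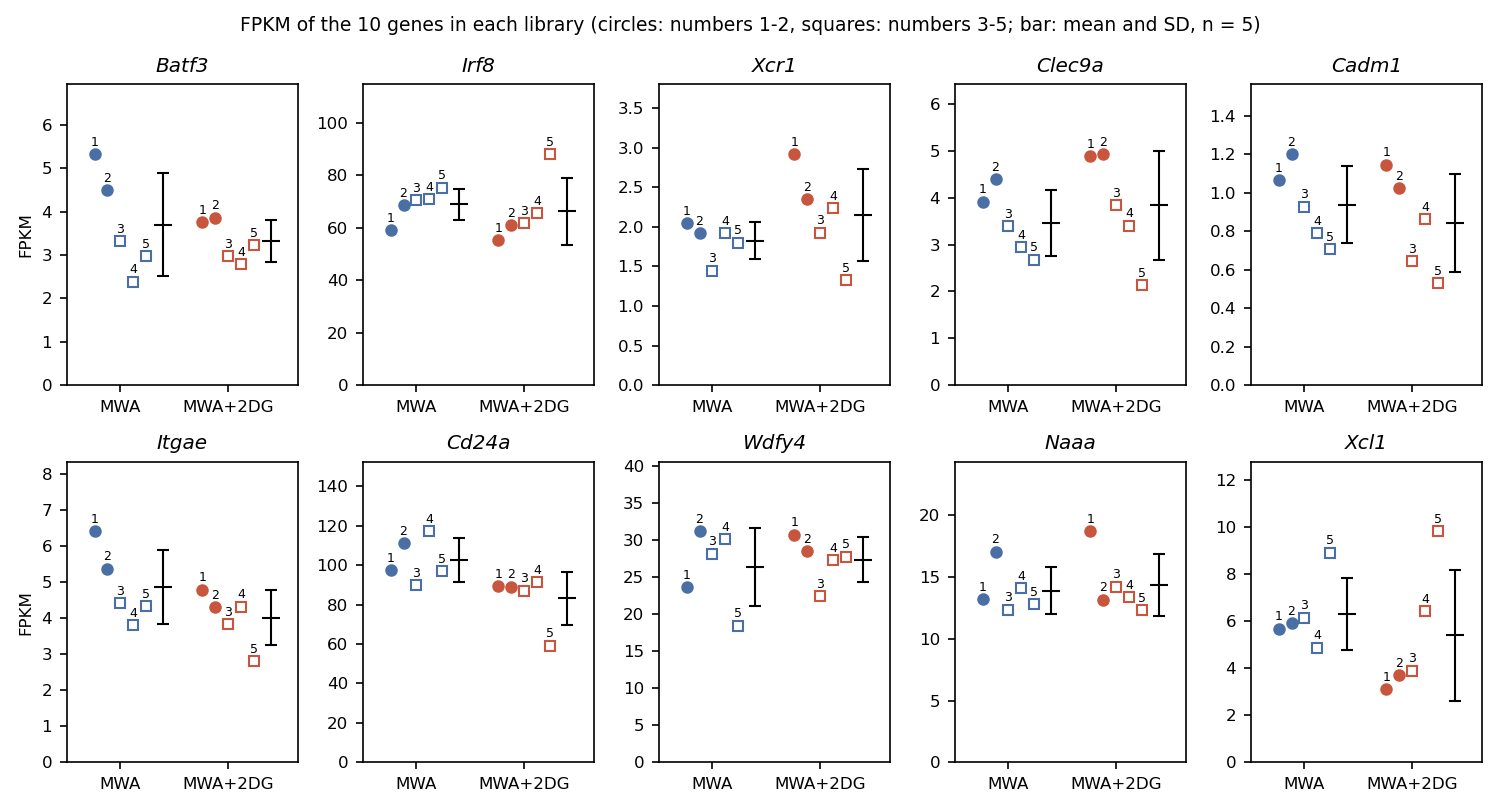
FPKM of each of the 10 genes (vertical axes, each from 0) in the 5 MWA and 5 MWA+2DG libraries, with each point labelled by its library number, circles for numbers 1 and 2, squares for numbers 3 to 5, and the bar at the mean with its SD. For every gene the groups overlap, and MWA+2DG 5 has the lowest value of the 10 libraries for Xcr1 (1.33 FPKM), Clec9a (2.14 FPKM), Cadm1, Itgae, Naaa and Cd24a (59.2 FPKM) and the highest for Irf8 (88.1 FPKM) and Xcl1 (9.84 FPKM).

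No shift common to the cDC1 genes was detected between MWA+2DG and MWA. No member passed limma's moderated test at a Benjamini-Hochberg adjusted p of 0.05 over all tested genes, where 0.0% of the tested genes passed, and the adjusted p was 0.995 for each of the 9. At an unadjusted P under 0.05, 1 of the 9 passed (Cd24a, lower), where 4.25% of all tested genes passed, and a rank-sum test passed 416 genes before adjustment and 0 after it. By the rule of the study's methods, a P under 0.05 with a log fold change beyond 0.25, read here as unadjusted and on the log2 scale, Cd24a was the 1 member lower in MWA+2DG (1.87% of tested genes) and no member was higher (0.952% of tested genes). The log2 fold change was below 0 for 5 of the 9 (47.4% of tested genes) and above 0 for 4, with a median of -0.07 beside 0.01 over all tested genes. For none of the 9 were the groups apart without overlap (0.802% of tested genes).

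Batf3 and Irf8 encode the transcription factors on which cDC1 depend. Batf3 was at 5.33, 4.50, 3.31, 2.39 and 2.97 FPKM in MWA 1 to 5 and at 3.76, 3.86, 2.98, 2.78 and 3.23 FPKM in MWA+2DG 1 to 5. The MWA libraries spanned more than the MWA+2DG libraries, all of which lay inside their range. The log2 fold change was -0.09 ± 0.16 (SE from limma, exact permutation p = 0.611). It rested on MWA 1, without which it was 0.025, and was -0.086 without MWA+2DG 5.

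Irf8 was at 59.0, 68.6, 70.4, 70.7 and 75.2 FPKM in the MWA libraries and at 55.3, 60.9, 61.6, 65.4 and 88.1 FPKM in the MWA+2DG libraries. MWA+2DG 5 was the highest of all 10 libraries and MWA+2DG 1 the lowest, and MWA+2DG 2, 3 and 4 lay between MWA 1 and MWA 2. The difference was -0.07 ± 0.12 on the log2 scale (exact permutation p = 0.635) with all libraries and -0.17 ± 0.09 (exact permutation p = 0.0635) without MWA+2DG 5, whereas without MWA+2DG 1 it was -0.0082. After quantile normalization the sign turned, to 0.0059.

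Of the other 16 transcription factors of dendritic cells examined, none passed at an unadjusted P under 0.05. Id2, which Batf3-dependent cDC1 need, and Nfil3, which acts before it, had log2 fold changes of -0.03 and 0.04. Zeb2, which opposes the cDC1 fate, and Zbtb46, a marker of conventional dendritic cells, had 0.04 and 0.01. The median of the 16 was 0.04.

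The surface receptors came next. Xcr1 was at 2.05, 1.92, 1.45, 1.92 and 1.80 FPKM in MWA 1 to 5 and at 2.92, 2.35, 1.93, 2.24 and 1.33 FPKM in MWA+2DG 1 to 5. MWA+2DG 1, 2 and 4 were above every MWA library, MWA+2DG 3 was within their range, and MWA+2DG 5 was below all of them. The group means were 1.83 ± 0.230 FPKM and 2.15 ± 0.586 FPKM (SD, n = 5 each), a log2 fold change of 0.14 with a 95% interval from -0.14 to 0.42 (limma P = 0.297, exact permutation p = 0.302). Without MWA+2DG 5 the difference was 0.24 ± 0.10 (limma P = 0.0342, adjusted p = 0.935, exact permutation p = 0.0317), whereas it was 0.056 without MWA+2DG 1 and 0.089 without MWA 3.

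Clec9a was at 3.92, 4.40, 3.40, 2.94 and 2.68 FPKM in the MWA libraries and at 4.88, 4.94, 3.84, 3.40 and 2.14 FPKM in the MWA+2DG libraries. MWA+2DG 1 and 2 were the highest of the 10 libraries and MWA+2DG 5 the lowest. The log2 fold change was 0.09 ± 0.18 with all libraries (exact permutation p = 0.635) and 0.24 ± 0.14 without MWA+2DG 5 (exact permutation p = 0.159). When the number set was also a factor it was 0.20 ± 0.07 without that library (limma P = 0.0230, exact permutation p = 0.0167 within sets, the smallest that these libraries can give). This combined setting was chosen after seeing the data, and it leaves out the library with the lowest Clec9a. Leaving out MWA+2DG 1 or 2 instead brought the difference to 0.012 or 0.0092.

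The adhesion and surface glycoprotein genes had lower means in MWA+2DG. Cadm1, an immunoglobulin-like adhesion molecule that binds CRTAM on activated T cells, was at 1.07, 1.20, 0.929, 0.789 and 0.707 FPKM in the MWA libraries and at 1.15, 1.03, 0.644, 0.864 and 0.532 FPKM in the MWA+2DG libraries. MWA+2DG 3 and 5 lay below every MWA library and the others within their range, and with no filter on low levels the log2 fold change was -0.08 ± 0.11 (exact permutation p = 0.508). Without MWA+2DG 5 the log2 fold change of Cadm1 was -0.015 (exact permutation p = 0.897). Itgae encodes CD103, an integrin alpha chain that pairs with integrin beta 7 and marks migratory cDC1 and some T cells. Its level was 6.41, 5.37, 4.41, 3.81 and 4.34 FPKM in MWA and 4.79, 4.30, 3.84, 4.32 and 2.80 FPKM in MWA+2DG. MWA 1 and 2 were above every MWA+2DG library and MWA+2DG 5 was below every MWA library. The log2 fold change of Itgae was -0.23 ± 0.14 (limma P = 0.137, exact permutation p = 0.183), and with the number set as a factor its SE was 0.10 (limma P = 0.0479, exact permutation p = 0.0833 within sets). It was -0.13 without MWA+2DG 5 (exact permutation p = 0.389) and -0.14 without MWA 1, and with the set as a factor and MWA+2DG 5 left out it no longer passed (-0.16, limma P = 0.111, exact permutation p = 0.283 within sets).

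Cd24a, a glycoprotein used to separate resident cDC1 from other dendritic cells and abundant on B cells, was at 97.6, 111, 90.0, 117 and 96.8 FPKM in MWA and at 89.3, 89.0, 87.0, 91.5 and 59.2 FPKM in MWA+2DG. All MWA+2DG libraries except number 4 lay below every MWA library, and MWA+2DG 4 lay just above MWA 3. The group means were 103 ± 11.2 FPKM and 83.2 ± 13.5 FPKM (SD, n = 5 each), a log2 fold change of -0.31 ± 0.13 (limma P = 0.0348, adjusted p = 0.995, exact permutation p = 0.0159, and 0.0333 with labels exchanged only within number sets). The difference was -0.19 without MWA+2DG 5 (limma P = 0.0507, exact permutation p = 0.0397), -0.28 without MWA 2 (0.0748 and 0.0397) and -0.26 without MWA 4 (0.0821 and 0.0476). When each library was scaled to the same sum it was -0.25, and after quantile normalization -0.23, and neither passed limma's unadjusted P of 0.05.

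The remaining cDC1 products act inside the cell. Wdfy4, which cDC1 need to cross-present antigen from dead cells, was at 23.6, 31.2, 28.1, 30.1 and 18.5 FPKM in MWA and at 30.7, 28.5, 22.4, 27.3 and 27.7 FPKM in MWA+2DG. Naaa, a lysosomal amidase that degrades N-acylethanolamines, was at 13.2, 17.1, 12.3, 14.1 and 12.8 FPKM in MWA and at 18.7, 13.2, 14.2, 13.4 and 12.3 FPKM in MWA+2DG. Their log2 fold changes were 0.07 ± 0.14 (exact permutation p = 0.698) and 0.04 ± 0.12 (exact permutation p = 0.683). Each changed sign without 1 library: Wdfy4 to -0.045 without MWA 5 and Naaa to -0.056 without MWA+2DG 1. Without MWA+2DG 5 they were 0.064 and 0.085.

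Xcl1, the ligand of XCR1, varied most among libraries, 3.15-fold from lowest to highest. It was at 5.69, 5.92, 6.15, 4.88 and 8.93 FPKM in MWA and at 3.13, 3.72, 3.91, 6.43 and 9.84 FPKM in MWA+2DG. MWA+2DG 1, 2 and 3 were below every MWA library, MWA+2DG 4 was within their range and MWA+2DG 5 was above all of them, the reverse of its place for Xcr1. The log2 fold change was -0.27 ± 0.25 (limma P = 0.314, exact permutation p = 0.381). Without MWA+2DG 5 it was -0.48 ± 0.19 (limma P = 0.0303, adjusted p = 0.935, exact permutation p = 0.0714). Without both MWA+2DG 5 and MWA 4, the libraries with the highest Cxcl9, it was -0.55 ± 0.19 (limma P = 0.0198, exact permutation p = 0.114), a setting chosen after seeing the data. Other removals shrank it, to -0.13 without MWA+2DG 1 and -0.15 without MWA 5.

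Without MWA+2DG 5, then, 2 of the 9 members (Xcr1 higher and Xcl1 lower in MWA+2DG) passed limma at an unadjusted P under 0.05, where 4.66% of all tested genes passed. No gene passed at an adjusted p of 0.05, and the smallest adjusted p among all genes was 0.646. Each library was left out in turn by plan, and MWA+2DG 5 is singled out here because its values stood apart. Those values include the lowest Xcr1 and the highest Xcl1 of all libraries. Leaving out MWA+2DG 5 therefore raises the difference of Xcr1 and lowers that of Xcl1. The P-values without this library are given as a description.

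**Figure D2:**
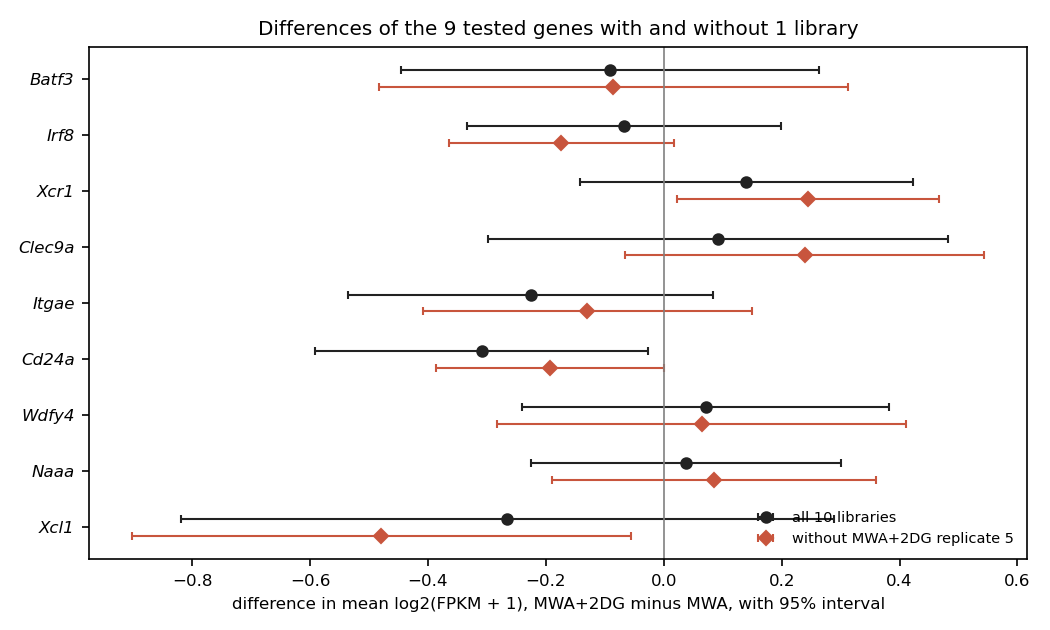
Difference in mean log2(FPKM + 1) between MWA+2DG and MWA (horizontal axis) for the 9 tested genes with its 95% interval, with all 10 libraries (black circles) and without MWA+2DG 5 (red diamonds). With all libraries only the interval of Cd24a lies off 0, and without MWA+2DG 5 those of Xcr1 (0.02 to 0.47) and Xcl1 (-0.90 to -0.06) do.

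Several members differed between the number sets. Clec9a was at 3.92 to 4.94 FPKM in the libraries numbered 1 or 2 and at 2.14 to 3.84 FPKM in those numbered 3 to 5. Batf3 was at 3.76 to 5.33 FPKM in the former and 2.39 to 3.31 FPKM in the latter, and Cadm1 at 1.03 to 1.20 and 0.532 to 0.929 FPKM. For these 3 of the 10 members the sets did not overlap, whereas the treatment groups overlapped for all 10. Of the 3 only Clec9a and Batf3 were among the 9 tested members, and the sets did not overlap for 9.84% of tested genes. By their means 8 of the 10 members were higher in the libraries numbered 1 or 2, and Irf8 and Xcl1 were lower. No share of all genes higher in those libraries is given, so this count has no background. Flt3, the receptor of the growth factor that expands dendritic cells, also separated the sets, at 4.57 to 4.95 and 2.46 to 4.47 FPKM.

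Within each set the treatment difference of a member could be read on its own. Xcr1 had a log2 fold change of 0.28 among the libraries numbered 1 or 2 and 0.05 among those numbered 3 to 5. Clec9a had 0.20 and 0.02, and Xcl1 had -0.62 and -0.03. For Cd24a the values were -0.22 and -0.37, for Itgae -0.31 and -0.17, for Batf3 -0.30 and 0.04. MWA+2DG 5 belongs to the second set, and no test was run within a set of 2 or 3 libraries per group. What the number sets stand for is not stated in the labels.

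Across the 10 libraries the members did not rise and fall as 1 block. In all, 99 relations were computed on log2(FPKM + 1), 36 between members and 63 between members and the mean level of a cell type's genes, and 6 had a Benjamini-Hochberg adjusted permutation p of Pearson's r under 0.05. Xcr1 and Clec9a rose together (r = 0.76, permutation p = 0.0106, adjusted p = 0.0958, rho = 0.84, permutation p = 0.00351, adjusted p = 0.0579), but r was 0.47 without the extreme libraries MWA+2DG 1 and 5 and 0.57 in the 6 libraries numbered 3 to 5. That relation did not pass the adjustment and rested in part on these libraries. The receptor Xcr1 and its ligand Xcl1 ran opposite (r = -0.75, permutation p = 0.0111, adjusted p = 0.0958, rho = -0.73, permutation p = 0.0197, adjusted p = 0.143), with r = -0.40 without MWA+2DG 1 and 5, so this relation too rested on these libraries.

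Irf8 ran opposite to both. With Clec9a its r was -0.88 (permutation p = 0.00067, adjusted p = 0.0332, rho = -0.88, permutation p = 0.00157, adjusted p = 0.0389), -0.79 without MWA+2DG 2 and 5, and -0.97 (exact permutation p = 0.00139) in the libraries numbered 3 to 5. With Xcr1 its r was -0.85 (permutation p = 0.00231, adjusted p = 0.0442, rho = -0.90, permutation p = 0.00089, adjusted p = 0.0389), -0.60 without MWA+2DG 1 and 5, and -0.74 (exact permutation p = 0.0819) in the libraries numbered 3 to 5. Irf8 rose instead with Xcl1 (r = 0.86, permutation p = 0.00118, adjusted p = 0.0389, rho = 0.78, permutation p = 0.0103, adjusted p = 0.102; 0.68 without MWA+2DG 1 and 5; 0.85 with exact permutation p = 0.0333 in numbers 3 to 5).

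Libraries with more transcripts of NK cell genes had less Clec9a. The r of Clec9a with the mean level of the 8 tested NK cell genes of the 10 examined, among them Ncr1 and Gzma, was -0.93 (permutation p = 0.0001, adjusted p = 0.0099, rho = -0.89, permutation p = 0.00119, adjusted p = 0.0389). It was -0.88 without MWA+2DG 2 and 5, -0.92 once group and number set were removed, and -0.94 (exact permutation p = 0.00833) in the libraries numbered 3 to 5. Clec9a was likewise lower where Xcl1 was higher (r = -0.83, permutation p = 0.00268, adjusted p = 0.0442, rho = -0.78, permutation p = 0.0103, adjusted p = 0.102; -0.69 without MWA+2DG 2 and 5; -0.83 with exact permutation p = 0.0417 in numbers 3 to 5). Between Xcl1 and the NK cell genes themselves r was 0.68 (permutation p = 0.0318, adjusted p = 0.158, rho = 0.62, permutation p = 0.061, adjusted p = 0.263) and fell to 0.42 without MWA+2DG 1 and 5.

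Batf3 rose with the mean level of the 14 tested genes of migratory dendritic cells, among them the chemokine receptor Ccr7 (r = 0.85, permutation p = 0.00207, adjusted p = 0.0442, rho = 0.84, permutation p = 0.0032, adjusted p = 0.0579). It was 0.71 without MWA 1 and 2 and 0.51 (exact permutation p = 0.314) in the libraries numbered 3 to 5, and 0.60 once group and number set were removed, so the relation rested in part on the number sets.

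By the Pearson r of log2(FPKM + 1) over the 10 libraries, a description given without a p, the tested gene most like Xcr1 was Tlr11 (r = 0.96). Tlr11 encodes an endosomal receptor for parasite profilin and is on the list of other cDC1 genes below. It was at 2.18, 2.27, 1.81, 2.24 and 1.92 FPKM in MWA and at 3.55, 2.43, 2.35, 2.54 and 1.53 FPKM in MWA+2DG. As for Xcr1, MWA+2DG 1 was the highest library and MWA+2DG 5 the lowest. Its log2 fold changes, 0.15 with all libraries and 0.26 without MWA+2DG 5, follow from the likeness to Xcr1 by which it was found and are given as a description. Trbj1-3 (r = 0.93), Clip1 (0.92), Kdm5b (0.92) and Trav4-2 (0.92) followed. The genes most like Clec9a were Taf9b (r = 0.98), Dnajc6 (0.97), Mfsd14a (0.97), Gfod2 (0.97) and Mxd4 (0.97), none of them on a dendritic cell list used here. Those most like Xcl1 were Ctsz (r = 0.93), Tceanc2 (0.91), Pla2g7 (0.90), Snx5 (0.88) and Psap (0.87).

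**Figure D3:**
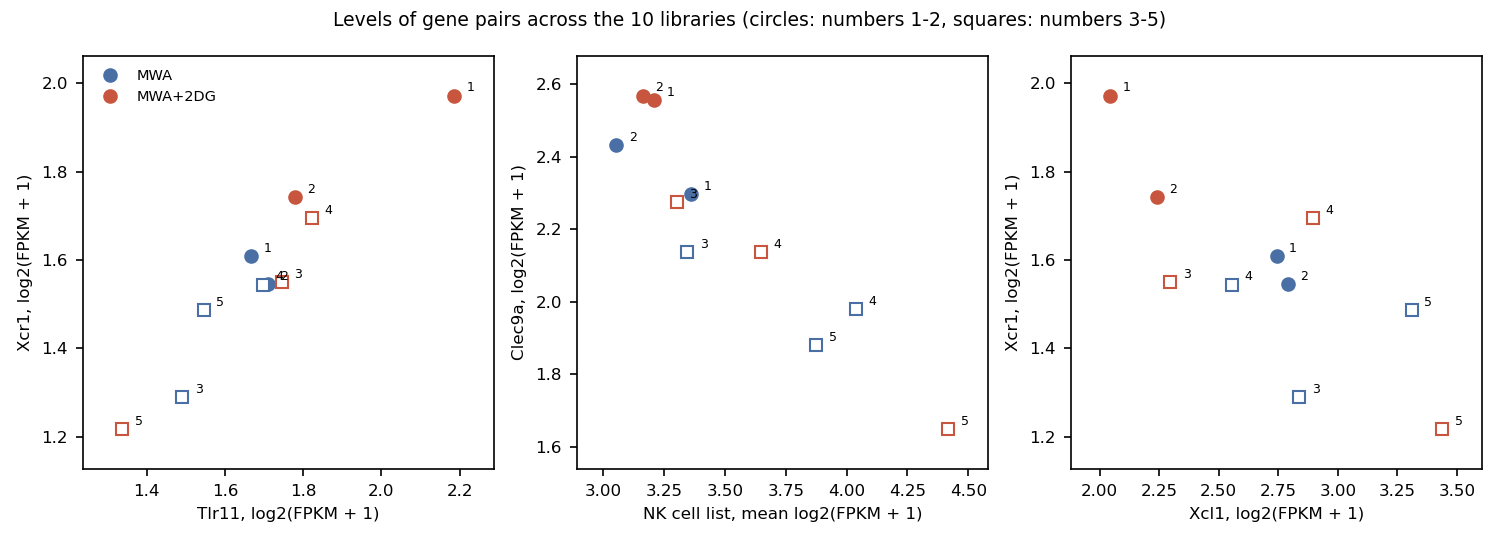
Levels across the 10 libraries on the log2(FPKM + 1) scale, with Xcr1 against Tlr11 (left; r = 0.96), Clec9a against the mean of the NK cell genes (middle; r = -0.93) and Xcr1 against Xcl1 (right; r = -0.75), MWA in blue, MWA+2DG in red, circles for numbers 1 and 2 and squares for numbers 3 to 5, each point labelled by its number. MWA+2DG 5 has the lowest Xcr1 and Clec9a, MWA+2DG 1 the highest Xcr1 and MWA+2DG 2 the highest Clec9a.

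The promoters of Xcr1 and Clec9a are shown because these are the members most restricted to cDC1. They were taken from RefSeq (GRCm38.p6), from 250 bases before to 50 bases after the annotated start, 5′ to 3′ on the gene's strand, and have no link to the coordinates the files were built on. Entries for 7 of the 10 members were at hand, and those for Cadm1, Itgae and Cd24a were missing. Capitals mark GAAACT, a core of the elements that interferon regulatory factors bind. The Xcr1 promoter is at chr9:123861980-123862279 on the minus strand and that of Clec9a at chr6:129408612-129408911 on the plus strand.
Xcr1: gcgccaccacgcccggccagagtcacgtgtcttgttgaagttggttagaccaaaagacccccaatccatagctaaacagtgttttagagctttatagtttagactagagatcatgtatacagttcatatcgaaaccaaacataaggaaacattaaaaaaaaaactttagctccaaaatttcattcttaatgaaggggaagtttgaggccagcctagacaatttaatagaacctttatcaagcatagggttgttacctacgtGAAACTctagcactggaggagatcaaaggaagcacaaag
Clec9a: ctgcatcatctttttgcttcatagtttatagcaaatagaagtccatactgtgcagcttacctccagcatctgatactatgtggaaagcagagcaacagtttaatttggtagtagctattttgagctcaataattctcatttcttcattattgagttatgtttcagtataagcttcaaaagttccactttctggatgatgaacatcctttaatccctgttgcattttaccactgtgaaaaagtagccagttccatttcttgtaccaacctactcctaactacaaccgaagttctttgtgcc
GAAACT, searched on both strands, lay in the windows of Xcr1 and Xcl1 and in 15.8% of 32851 promoters of the same length. TGANTCA, the AP-1 motif bound by BATF-family dimers, lay in none of the members' windows and in 7.81% of all promoters. A match is a run of letters only.

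The partners of the members were examined next. Itgb7, the chain that pairs with CD103, was at 63.4 to 113 FPKM in MWA and 83.9 to 108 FPKM in MWA+2DG, and differed by 0.24 ± 0.14 on the log2 scale (exact permutation p = 0.143). Syk, the kinase recruited by CLEC9A, had -0.13 ± 0.10 (exact permutation p = 0.222), and Crtam, the receptor on T cells for CADM1, had 0.07 ± 0.09 (exact permutation p = 0.429). None of the 5 tested partners, among which the members Xcr1 and Xcl1 are counted again, passed at an unadjusted P under 0.05.

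Of 12 other genes of cDC1, 7 were tested. With all libraries their median log2 fold change was 0.15, and 6 of them were higher on average in MWA+2DG without passing the test. Without MWA+2DG 5 the median was 0.084. Tlr3 and Ifi205, both among the 6, were highest in MWA+2DG 5. Tlr3 was at 5.64 FPKM there, 1.33 to 1.99 FPKM in the other MWA+2DG libraries and 0.986 to 4.19 FPKM in MWA. For Ifi205 the other MWA+2DG libraries were at 1.37 to 1.92 FPKM and MWA at 1.12 to 3.51 FPKM. The number higher without MWA+2DG 5 was not counted. Snx22, a sorting nexin, was at 3.30 to 5.96 FPKM in MWA and 3.48 to 8.04 FPKM in MWA+2DG, with 0.22 ± 0.19 (exact permutation p = 0.302). Ppt1, a lysosomal thioesterase, had 0.05 ± 0.11 (exact permutation p = 0.675). Gcsam, which germinal centre B cells also transcribe, was the exception, at 15.7 to 27.1 FPKM in MWA and 10.2 to 19.1 FPKM in MWA+2DG and with a log2 fold change of -0.51 ± 0.17 (limma P = 0.0119, adjusted p = 0.995, exact permutation p = 0.0317). It is also on the germinal centre list, in which 9 of 9 genes had negative log2 fold changes, 6 of them at an unadjusted P under 0.05, with a median of -0.51.

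Genes for other dendritic cells and for the growth of dendritic cells gave few differences. Of 9 tested genes of type 2 conventional dendritic cells (cDC2), which prime CD4 T cells, 7 had negative log2 fold changes with a median of -0.14, and Clec10a (-0.38 ± 0.14, exact permutation p = 0.0476) and Csf1r (-0.30 ± 0.13, exact permutation p = 0.0873), which macrophages also transcribe, were lower at limma's unadjusted P under 0.05. Among 14 tested genes of migratory dendritic cells none passed and the median was -0.01, with Ccr7 at 0.18 ± 0.12 (exact permutation p = 0.206). Among 11 genes shared by dendritic cells or encoding their growth factors none passed and the median was 0.04. Flt3l, the growth factor on which cDC1 numbers depend, had 0.13 ± 0.12 (exact permutation p = 0.317).

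Among 14 tested genes of cross-presentation and T cell priming none passed and the median was 0.02. The library MWA+2DG 5 was the highest for some of them. The peptide transporter Tap1 was at 136 FPKM there and at 53.5 to 75.1 FPKM in the other libraries. For others, such as Cd40 and Sec22b, both the highest and the lowest value lay in other libraries. Il12a, which encodes a chain of the cytokine IL-12, had 0.13 ± 0.12 (exact permutation p = 0.333).

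Genes of other cells of the node compared between the groups as follows. All 12 T cell genes were higher on average, the median log2 fold change being 0.17, and Cd4 (0.23 ± 0.11, exact permutation p = 0.0794) and Cd8a (0.28 ± 0.11, exact permutation p = 0.0556) passed limma at an unadjusted P under 0.05. All 10 B cell genes had negative ones with a median of -0.07, and none passed. Among 8 tested NK cell genes 5 were positive, none passed and the median was 0.03. Of 6 tested neutrophil genes 5 were lower on average, with a median of -0.70, and S100a8 (-1.43 ± 0.54, exact permutation p = 0.0476) and S100a9 (-1.61 ± 0.52, exact permutation p = 0.0317) passed limma at an unadjusted P under 0.05. Without MWA 1, where both were highest, they differed by -0.95 and -1.16. All 4 tested adipose genes were higher on average (median 0.89) and all 10 liver genes lower (median -0.31), with none passing. No gene of these lists passed at an adjusted p of 0.05. Their part in the values of the members, several of which B cells or T cells also transcribe, was not tested.

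**Figure D4:**
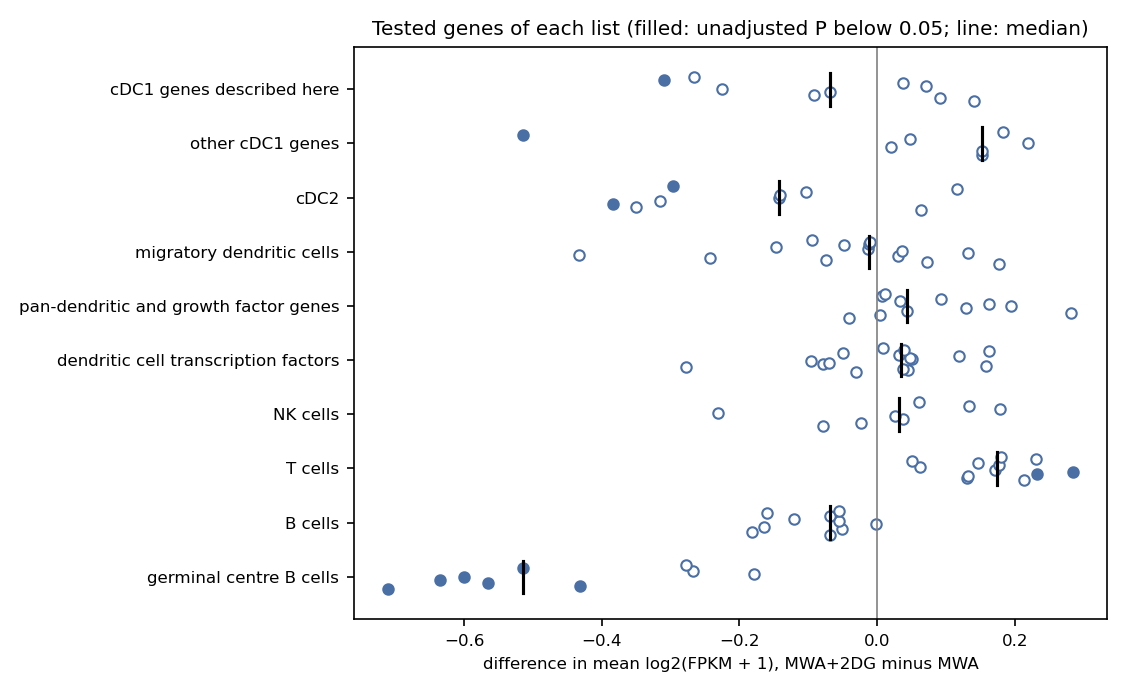
Difference in mean log2(FPKM + 1) between MWA+2DG and MWA (horizontal axis) for each tested gene of 10 lists, filled where the unadjusted P was under 0.05, with a line at each list's median. The 9 tested cDC1 genes lie on both sides of 0 (median -0.07), all 12 T cell genes lie above 0 and all 9 germinal centre B cell genes lie below it (median -0.51).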

How the data were processed

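Poly(A) RNA of TDLNs was sequenced in 5 MWA and 5 MWA+2DG libraries. The FPKM values of each library were deposited by the authors, 1 file per library. According to the methods and the submitters' processing notes, reads were trimmed (fastp is named in the methods and cutadapt 1.9 in the notes), aligned with HISAT2 2.0.4 and quantified with StringTie 1.3.4d and ballgown, with UMI-tools and the build mm9 also named. FPKM keeps no read numbers, so the depth behind a value is unknown and low levels carry more counting error than can be stated.

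Of 33643 Ensembl identifiers 33541 matched a symbol, and values of 57 symbols with several identifiers were summed. Genes averaging 1 FPKM or more in the 10 libraries were tested on log2(FPKM + 1), so fold changes of low genes are understated, with limma 3.58.1 in R 4.3.3, the package named in the study's methods, 5 against 5 and with no covariate. The pseudocount, filter, log base and covariates were set here, since the methods do not state them. The script was tested on simulated data. Permutation tests were two-sided. With 5 against 5 the smallest exact p is 0.00794, and 0.0167 within number sets. Permutation p-values of correlations used 100000 resamples.

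The members and all gene lists were chosen with earlier results of these data known. Named are all members and the 5 genes most like Xcr1, Clec9a and Xcl1. In each other list the genes at an unadjusted P under 0.05 and up to 3 of the highest mean level are named. List genes named beyond these were chosen for their roles or their values, after their values were seen. Alternatives were another pseudocount, filter and scaling, a trended prior, a rank-sum test, a replicate block, a set factor and each library left out.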

Additional observations from a re-analysis of the deposited data

Results flagged for a closer look

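Groups of 5 libraries were examined for 1 library far from its 4 companions (a gap over 0.71 of the group's range) in 44 gene and group combinations, and chance alone marks about 1 in 20 such groups. Among the cDC1 genes, Cd24a in MWA+2DG 5 was the lowest of its group at 59.2 FPKM, far below the other MWA+2DG libraries at 87.0 to 91.5 FPKM. The same library had the lowest Rgs13, a germinal centre B cell gene, at 9.21 FPKM. In MWA 1 the neutrophil genes S100a8 and S100a9 were the highest of their group, at 21.9 and 46.9 FPKM. The part of these libraries' composition in the values of the cDC1 genes was not tested.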

How the results depend on the processing

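Over 25 results and 521 alternative values, 446 stayed on their side of the threshold or within the margin set for counts and medians, 54 lost an unadjusted P under 0.05, 8 gained one, 9 moved and 4 reversed. The reversals among genes were Irf8 after quantile normalization (0.0059), Batf3 without MWA 1 (0.025), Wdfy4 without MWA 5 (-0.045) and Naaa without MWA+2DG 1 (-0.056). The number of members at an unadjusted P under 0.05 (1 with all libraries) was 0 when each library was rescaled to 1000000, 0 after quantile normalization, 2 with the number set as a factor (Itgae and Cd24a), 3 with that factor and without MWA+2DG 5, 2 without MWA 4 and MWA+2DG 5, and 0 to 2 when each library was left out. The share of all tested genes at that P was 4.25% with all libraries and 4.66% without MWA+2DG 5. For the other settings no such share is given, so their counts have no background to be read against. Xcr1 passed at 0.23 with the set factor and without MWA+2DG 5, at 0.26 without MWA 4 and MWA+2DG 5, and ranged from 0.056 to 0.24 over the libraries left out, and Clec9a passed at 0.20 in the former setting and ranged from 0.0092 to 0.24. Leaving out each library, Batf3 ranged from -0.20 to 0.03, Wdfy4 from -0.05 to 0.14 and Naaa from -0.06 to 0.11. The median of the members was -0.09 to 0.02 over the libraries left out, positive without MWA 1 (0.02) and after quantile normalization (0.0059). Irf8 ranged from -0.17 to -0.0082, Itgae from -0.29 to -0.13 and Xcl1 from -0.48 to -0.13. The number of all tested genes at an adjusted p under 0.05 was 0 to 1, the 1 being Ighv1-26 without MWA 2, named after its value was seen. The settings that combine the set factor with a missing library, or drop 2 libraries, were chosen after seeing the data. Same-numbered libraries of the groups correlated at 0.331, 0.501, 0.11, 0.0334 and 0.151 in their deviations from the group means, number 4 fell under 0.1, and not every library correlated best with its own number, so the numbers were not taken to pair the samples. With a replicate block 1 member (Cd24a) passed at an unadjusted P under 0.05 and 0 genes passed after adjustment, and the block changed no call of a member and 1 of another named gene (Csf1r, which no longer passed). The cause of these changes was not tested. Read depth is unknown, and the low levels of Cadm1 and Xcr1 limit what could be detected for them.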
